A study of Mus musculus with 6 samples.

Results

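The baseline transcriptome of cells sorted by flow cytometry from the subependymal zone, the stem cell layer along the lateral ventricles of the adult brain, was described from the 3 vehicle libraries of a series of 6. All protein-coding genes that measured at least 1 TPM in each of the 3 libraries were taken, which left 12825 of 21832 listed protein-coding genes (58.7%). TPM is an abundance per transcript length, scaled to the same total in each library and summed here over the transcripts of a gene, so levels can be compared between genes. The mice were gfap:GFP transgenic animals of the strain written as C56BL/6J in the labels, 3 months old, in which green fluorescent protein is driven by the Gfap promoter, active in astrocytes and stem cells alike. They had received artificial cerebrospinal fluid (aCSF, the vehicle) into the ventricles, and the cells were taken 3 days later and are titled prospectively isolated quiescent neural stem cells. The treatment protocol text names the antagomir for these samples as well, while their titles and treatment group name the vehicle, and the latter were followed. Nothing in the labels ties each of the 3 replicates to its own animal, so the spread between them may be partly technical. The antagomir libraries were not used.

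Neural stem cells of this zone are astrocyte-like cells that express Gfap and glial transporters. Most of them rest in a quiescent state, and when activated they divide and give rise, through transit-amplifying progenitors, to neuroblasts that migrate to the olfactory bulb and to some oligodendrocytes. Ependymal cells with motile cilia, microglia, vessels, myelinating oligodendrocytes of the adjoining white matter and striatal neurons lie next to them, and parenchymal astrocytes share most of their marker genes.

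The libraries held 17742181, 16358774 and 19694409 estimated counts. A floor of 3 counts, set for a count of 0, corresponds to 0.152 to 0.183 CPM (counts scaled to a common library total). Such floors cover counting error only. Members held 90.1 to 91.8% of the TPM and 97.5 to 98.0% of the counts of a library. Of the other listed genes, 7093 were under 1 TPM in all 3 libraries, 4796 of them at 0 throughout, and 1914 reached 1 TPM in 1 or 2 libraries. At the border, Fignl1 (lowest library 1.001 TPM), Spin4 (1.002) and Lmtk3 (1.002) were just inside, and Tdrd6 (0.999), Gpr6 (0.998) and Slc10a1 (0.997) just outside. Among members 105 rested on fewer than 10 counts in some library, 48 of them genes with Gm or Rik names.

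Vehicle replicate 1 stood apart from the other libraries. Across the 12825 members, Spearman's rank correlation of TPM was 0.944 between replicates 1 and 2, 0.931 between 1 and 3, and 0.968 between 2 and 3. These are correlations across genes, which are not independent replicates. The share of members that differed at least 2-fold was 10.8%, 12.6% and 6.93% for the same pairs. Microglia, interferon response, blood, cell division, neuroblast and most mature neuron genes were highest in replicate 1, as described below. Values are therefore given per library for many genes, and as mean ± SD for the others. Counts of list genes by highest or lowest library are given without the share over all members. For scale, among 304 transcription factor members 129 were highest in replicate 1. Among 226 solute carrier members 114 were lowest in replicate 1 and 57 in replicate 2.

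Promoter windows are shown for the 2 gene groups whose identity the description turns on, interferon response genes (raised together in replicate 1) and genes of the motile cilium (the ependymal signature). The windows are from RefSeq (build GRCm38.p6), which gives 300 bases per start site, 250 before and 50 after it, and the 250 bases before the start are printed 5′ to 3′ on the gene's strand. Capitals mark matches, on either strand, to the interferon-stimulated response element (ISRE, searched as GAAA, any 2 bases, GAAA) in Isg15 (chr4:156200819-156201068, minus strand) and Bst2 (chr8:71537473-71537722, minus strand), the 2 list members with a match and the largest ratio between libraries.

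Isg15: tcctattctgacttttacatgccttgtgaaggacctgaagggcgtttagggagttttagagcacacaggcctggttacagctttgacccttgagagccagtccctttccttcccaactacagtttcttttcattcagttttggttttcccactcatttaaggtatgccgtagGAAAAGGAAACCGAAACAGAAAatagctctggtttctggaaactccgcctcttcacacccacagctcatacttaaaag

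Bst2: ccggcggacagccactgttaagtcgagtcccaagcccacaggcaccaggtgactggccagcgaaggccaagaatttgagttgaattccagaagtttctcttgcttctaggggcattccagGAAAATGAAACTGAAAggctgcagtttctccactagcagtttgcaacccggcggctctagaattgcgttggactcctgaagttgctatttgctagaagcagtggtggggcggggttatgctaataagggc

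Isg15 held 3 overlapping matches, from -78 to -57 counted from the start site, and Bst2 held 2 overlapping ones, from -130 to -115. Of the 20 interferon list genes with a window, 11 held a match (55.0%), against 3.99% of all 27025 genes with a window. Of the microglia list, also high in replicate 1, 2 of 8 genes with a window held one (Ctss and Aif1), and of the ependymal list 0 of 12. Ifi27, Rtp4, Usp18 and Mx1 were among those with no window. A match is a run of letters and not a shown binding site. The regulatory factor X motif known as the X-box was searched on either strand as GT, any 2 bases, CC, any 3 bases, G, any base, AAC. It is capitalised in Pifo (chr3:106001498-106001747, minus strand) and Tekt4 (chr17:25471340-25471589, plus strand).

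Pifo: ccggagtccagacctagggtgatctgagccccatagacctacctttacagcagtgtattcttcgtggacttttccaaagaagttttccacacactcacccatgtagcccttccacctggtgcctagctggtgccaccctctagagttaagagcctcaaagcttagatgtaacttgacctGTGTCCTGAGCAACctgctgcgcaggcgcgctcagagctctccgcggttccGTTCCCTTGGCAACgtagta

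Tekt4: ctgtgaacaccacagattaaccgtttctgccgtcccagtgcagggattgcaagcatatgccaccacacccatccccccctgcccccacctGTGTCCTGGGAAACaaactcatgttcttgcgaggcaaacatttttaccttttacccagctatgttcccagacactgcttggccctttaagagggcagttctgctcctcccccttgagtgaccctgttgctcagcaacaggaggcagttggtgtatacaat

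These were the 2 of 12 ependymal list genes with a match (16.7%). The share was 2.49% of all genes with a window, 3.62% of members with a window and 0 of 20 interferon genes. Tekt4 held a further match at the first transcribed bases. Foxj1, Rarres2, Rsph1 and Rsph4a had no window.

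The most abundant transcripts encoded lipid carriers, secreted glial proteins, metal-binding proteins and the mitochondrial respiratory chain. Apoe, the lipid carrier that astrocytes secrete (ENSMUSG00000002985.16, chromosome 7, 19696109 to 19699188, GRCm38), measured 15740, 14966 and 14752 TPM in replicates 1 to 3 and was the highest nuclear gene. Cst3, the protease inhibitor cystatin C (ENSMUSG00000027447.6, chromosome 2, 148871722 to 148875692), followed with 13432, 11697 and 12336 TPM. The libraries lay close together for both genes. The secreted chaperone gene Clu had 5656 ± 150 TPM (SD, n = 3), Cpe, which encodes a processing enzyme of secreted peptides, 5066 ± 167, and Dbi, an acyl-CoA binding protein, 4947 ± 328. Secreted and membrane proteins further down the first 30 nuclear genes were Itm2b (1869 ± 27.5 TPM), Sparcl1 (1626 ± 47.0), the tetraspanins Tspan7 (1667 ± 66.2) and Cd81 (1555 ± 140), the connexin Gja1 (1535 ± 80.2) and the prostaglandin D synthase Ptgds.

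The same 30 genes included several that bind metals or act in redox reactions. The ferritin chains Fth1 and Ftl1 measured 6143 ± 298 and 2593 ± 482 TPM. The metallothionein Mt1 had 4133, 4629 and 5195 TPM and Mt3 had 2628, 3102 and 3347 TPM, both lowest in replicate 1 and highest in replicate 3. Gstm1, a glutathione transferase, measured 2487 ± 229 TPM and the peroxiredoxin gene Prdx6 2889 ± 153. Ubb, a ubiquitin gene, measured 2183 ± 36.6 TPM. The same genes included, for energy buffering, the brain creatine kinase gene Ckb (2961 ± 92.7) and, of the cytoskeleton, Tuba1a (2643 ± 307) and Tmsb4x. Nnat, an imprinted membrane proteolipid gene, lay between Mt1 and Mt3. The chaperone gene Hsp90aa1 (2688 ± 445), the immediate early gene Fos and 1 gene with a Gm name were also in the group, as were Aldoc and Mbp described below.

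Of these 30 genes Ptgds and Tmsb4x, which encodes the actin-binding protein thymosin beta 4, were among those that differed at least 2-fold between libraries. Tmsb4x measured 2672 TPM in replicate 1 against 1342 and 1162 TPM in replicates 2 and 3. Ptgds measured 920 TPM in replicate 1, 2395 in replicate 2 and 1645 in replicate 3, the order of the myelin genes.

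All 13 mitochondrially encoded protein genes were members and summed to 84039, 62828 and 74113 TPM, which is 9.29, 6.84 and 8.23% of the members' TPM. All 13 were highest in replicate 1. mt-Co3, a subunit of cytochrome oxidase, was the most abundant member with 19381, 14908 and 17260 TPM.

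The distribution was broad, as shown in the plot of level by rank. The 10 highest members held 10.3 to 12.3% of the members' TPM, the 100 highest 26.8 to 29.1% and the 1000 highest 54.9 to 56.4%. Between 641 and 730 genes held 50% of it. The same genes were among the 10, 100 and 1000 highest of every library in 8, 84 and 819 cases. In all, 75 members had a mean of 1000 TPM or more, 1658 had 100 to 1000, 8029 had 10 to 100, 1661 had 5 to 10 and 1402 had 1 to 5.

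**Figure D1:**
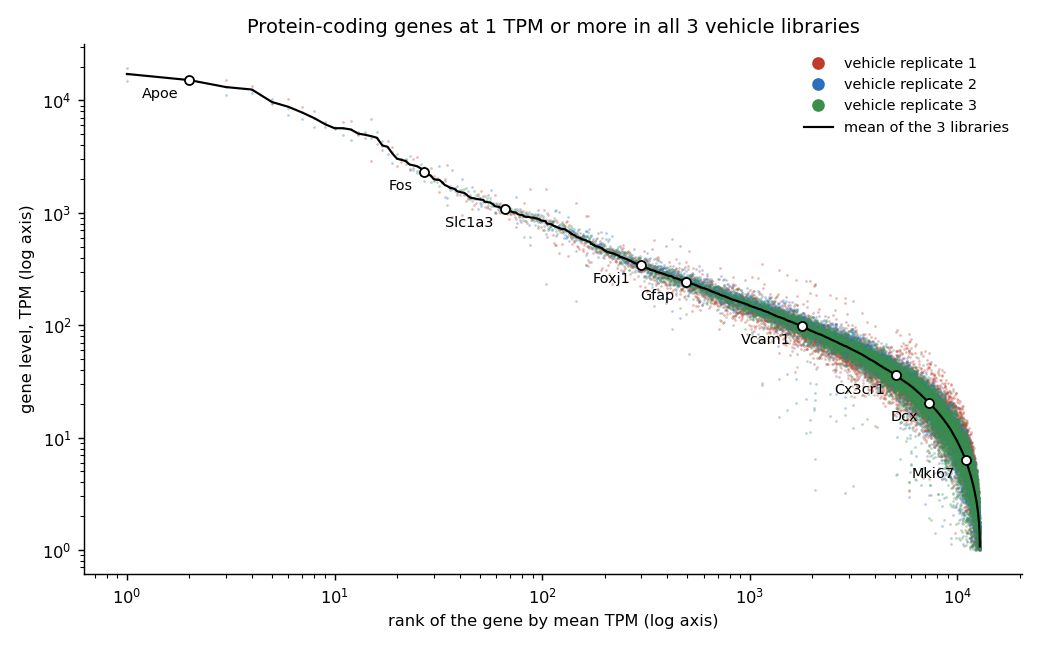
Level of each of the 12825 members in TPM against its rank by mean TPM, both on log axes, with 1 coloured point per library and a black line for the mean of 3. Named genes are circled: Apoe lies near the top and Mki67 at rank 10986.

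Astrocyte genes were among the most abundant and most even of the dataset. All 16 genes of the list were members, with a median of 318 TPM and a median percentile of 97.4 among members (100 is the highest). Aldoc, the glycolytic aldolase of astrocytes, measured 2043, 1986 and 1875 TPM, and Gja1, which encodes a connexin, 1443, 1573 and 1590 TPM. Ntsr2, a neurotensin receptor, measured 1125 ± 67.3 TPM. The glutamate transporter gene Slc1a3 (ENSMUSG00000005360.14, chromosome 15, 8634124 to 8710764) had 1101, 1080 and 1084 TPM, and the water channel gene Aqp4 154, 168 and 171 TPM. The summed level of the list was 9742, 9675 and 9725 TPM, so replicate 1 did not stand apart in it, and the median CV (SD over mean between the 3 libraries) was 6.19%.

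Gfap itself was the exception. It encodes the intermediate filament whose promoter drives the reporter of these mice (ENSMUSG00000020932.14, chromosome 11, 102887336 to 102900912). It measured 362 TPM in replicate 1, 246 in replicate 2 and 126 in replicate 3, the only gene of the list with a difference of 2-fold or more. At a mean of 245 ± 118 TPM it ranked 491. The transcript Gfap-201 held 82.5, 82.0 and 80.5% of its TPM, so the proportions of its transcripts differed little while its level did.

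Genes that mark quiescent neural stem cells were all present, 20 of 20, with a median of 215 TPM, although most of these genes are also expressed by astrocytes. After Clu and Tspan7 the highest were the tetraspanin gene Cd9 (968 ± 68.5 TPM) and Id4, an inhibitor of basic helix-loop-helix factors that acts downstream of BMP signals (706, 946 and 896 TPM). Its relative Id3 measured 308 ± 44.3 TPM. The stem cell and glial factors Sox9 and Sox2 had 497 ± 37.5 and 307 ± 31.6 TPM. Other genes of the list lay lower. Vcam1, an adhesion molecule that anchors stem cells of this zone, measured 117, 93.2 and 82.8 TPM and Hopx 81.3 ± 10.1. The orphan nuclear receptor gene Nr2e1, which maintains stem cells, had 60.1 ± 1.95. Prom1, which encodes the apical membrane protein CD133, had 22.7, 33.4 and 49.1 TPM and was the only gene of the list to differ 2-fold. Which cells its signal came from was not tested. Of the 20 genes 13 were lowest in replicate 1, as were 114 of 226 solute carrier members, and the median CV was 11.6%. The list summed to 11891, 12125 and 12375 TPM, of which Clu made up 5630, 5521 and 5817 TPM.

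Genes of activated stem cells and dividing cells were less even, and all 14 were highest in replicate 1. Their median was 22.3 TPM, at a median percentile of 45.7 among members, and their sum was 1434 TPM in replicate 1 against 637 and 588 TPM in replicates 2 and 3. Of that sum Ccnd2, a G1 cyclin, made up 944, 420 and 345 TPM. The next in level were the replication clamp gene Pcna (71.1 ± 11.8 TPM), Rrm2 (38.7 ± 18.6), which encodes a subunit of ribonucleotide reductase, and the mitotic cyclin gene Ccnb1 (65.7, 20.5 and 13.9). Egfr, the receptor that marks activated stem cells, measured 27.3, 17.4 and 25.5 TPM. The proliferation marker gene Mki67 had 12.9 TPM in replicate 1 and 2.26 and 3.79 TPM in the others.

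Neuroblast genes were also highest in replicate 1. Of the 14 listed, 13 were members, all 13 were highest in replicate 1, and the sum was 1474, 656 and 645 TPM. Cd24a, a surface glycoprotein that ependymal cells also carry, was the highest and the most even of the 4 highest, with 349, 266 and 344 TPM. The interneuron factor gene Dlx2 had 153, 77.9 and 76.3 TPM, Nrep 184, 80.2 and 42.8 TPM and the neuronal tubulin gene Tubb3 186, 41.1 and 30.1 TPM. Dcx, which encodes a microtubule protein of migrating neuroblasts, measured 45.9 TPM in replicate 1 and 8.59 and 6.25 TPM in replicates 2 and 3. In a bulk library, fewer cells of a type and less RNA per cell cannot be told apart.

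Ependymal genes were abundant in every library. All 16 were members with a median of 176 TPM, 15 of them lowest in replicate 1, and the sum was 4606, 5793 and 5957 TPM. The highest were Rarres2 (chemerin, 1138 ± 127 TPM) and Tmem212 (1039 ± 131), followed by the radial spoke gene Rsph1 (609.5 ± 92.6) and Ccdc153 (579 ± 102). Foxj1, the master factor of motile cilia (ENSMUSG00000034227.7, chromosome 11, 116330704 to 116335399), measured 301, 374 and 349 TPM, above Sox2 in each library. The promoter matches shown above belong to Pifo, at 165 ± 40.3 TPM, and to the tektin gene Tekt4, at 70.5 ± 11.4 TPM.

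Choroid plexus epithelium, the secretory tissue of the ventricles, was represented by 4 of 10 genes. Its defining transcript Ttr (transthyretin) measured 0.595 TPM in replicate 1 and was at 0 in the others. The 4 members were Folr1 (51.6, 77.3 and 87.2 TPM), a folate receptor, Clic6 (25.3 ± 4.37), Otx2 (13.8 ± 2.60) and Kcnj13 (1.40 ± 0.305), all lowest in replicate 1 as most ependymal genes were.

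Oligodendrocyte genes were abundant too. All 14 were members, with a median of 446 TPM and a median percentile of 98.4. Mbp, the gene of myelin basic protein, measured 1525, 2626 and 1736 TPM. Cnp had 1516 ± 518 TPM and Trf, the transferrin gene, 1213 ± 359. Every one of the 14 was highest in replicate 2 and lowest in replicate 1, and the sum was 8161, 17290 and 12209 TPM.

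Oligodendrocyte precursor genes split by their order among libraries. Of the 10 listed, 9 were members with a median of 18.6 TPM. The lineage factors Olig1 (172, 356 and 243 TPM), Sox10 (51.3, 120.3 and 79.3) and Olig2 (35.7, 88.0 and 62.1), which mature oligodendrocytes also express, followed the order of the myelin genes. The next in level, the channel subunit gene Cacng4, was highest in replicate 1 instead, with 33.4, 22.2 and 17.8 TPM. Pdgfra, the growth factor receptor that defines precursors, had the same order at 10.6, 4.93 and 2.56 TPM. Tnr (10.7, 15.4 and 29.8 TPM) and Vcan (9.84, 3.54 and 8.16 TPM) had neither order (both named with their values in view).

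Microglia genes differed more between libraries than those of any other cell type list. All 13 were members and all 13 were highest in replicate 1, with a sum of 2767 TPM against 390 and 238 TPM in replicates 2 and 3, a ratio of 11.6 between the highest and the lowest. The lysosomal protease gene Ctss measured 350.3, 29.3 and 30.5 TPM, and the complement genes C1qa 307, 33.3 and 15.2 TPM and C1qb 277, 37.2 and 17.5 TPM. Cx3cr1, the fractalkine receptor of microglia (ENSMUSG00000052336.7, chromosome 9, 119901616 to 120069879), had 86.8, 15.7 and 4.66 TPM. The group mean of 35.7 TPM for this gene lay far from each of the 3 libraries. Without replicate 1 the median of the list was 19.5 TPM.

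Endothelial genes were members in 3 of 10 cases, Pecam1 at 4.60 ± 0.328 TPM, Vwf at 4.25 ± 0.729 and Ly6c1 at 2.25 ± 0.643, and Cdh5 and Emcn were at 0 in every library. Of 11 genes of pericytes, smooth muscle and fibroblasts 5 were members, led by the actin gene Acta2 (87.1 ± 13.4 TPM), Pdgfrb (35.1 ± 2.50), Tagln (24.8 ± 0.363) and Col1a2 (13.6 ± 4.53), while Kcnj8, Vtn, Dcn and Lum were at 0. The haemoglobin genes of red cells were members, with Hba-a1 at 1644, 642 and 234 TPM and Hbb-bs at 1220, 461 and 164 TPM, highest in replicate 1 and lowest in replicate 3. Hba-a2 (455, 207 and 55.4), Hbb-bt (57.0, 27.1 and 4.06) and Alas2 (11.6, 5.25 and 1.45), the gene of a haem synthesis enzyme of red cell precursors, had the same order, and these 5 were the members of the 11 blood genes. The haemoglobin genes hold near-identical copies, so their split is uncertain. Of the leukocyte genes, which were no members, Cd3e, Ly6g and S100a9 were at 0 in all 3 libraries, while the general leukocyte gene Ptprc averaged 2.37 TPM, on 219, 31 and 39 counts, and S100a8 measured 2.81 TPM in replicate 1 and 0 in the others (both named with their values in view).

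Of 16 mature neuron genes 12 were members, with a median of 16.8 TPM. Of these 12, 11 were highest in replicate 1, and the sum was 823, 649 and 597 TPM. Rbfox3, the gene of the neuronal nuclear antigen NeuN, measured 30.5, 18.6 and 26.5 TPM, and Camk2a and the synaptic gene Snap25 had 64.8 ± 8.63 and 58.0 ± 22.4 TPM. Ppp1r1b, which encodes the phosphatase inhibitor DARPP-32 of striatal neurons, measured 442, 425.5 and 396.5 TPM and ranked 230. It made up most of the list's sum in every library, at a CV of 5.45%, so the sum differed less than most genes of the list. The dopamine receptor genes that striatal projection neurons carry beside it were near the threshold, Drd2 at 4.86 ± 0.975 TPM and Drd1 at 1.54, 3.85 and 0.214 TPM (named after their values were seen). The neuropeptide gene Penk had 97.6, 30.2 and 12.6 TPM.

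**Figure D2:**
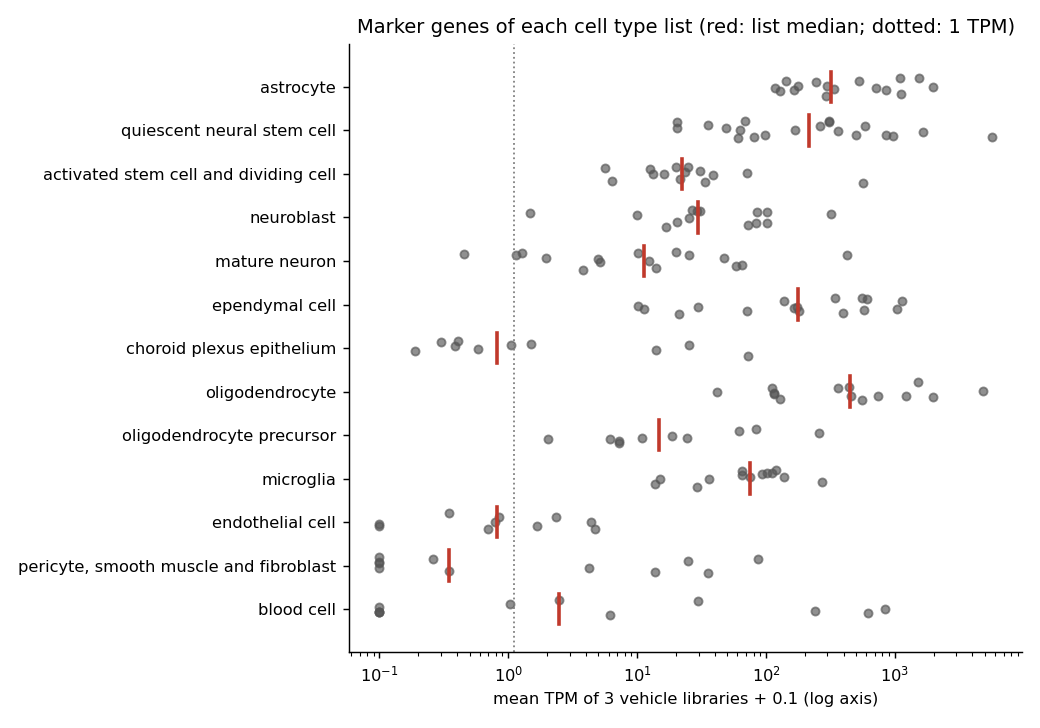
Mean TPM of 3 vehicle libraries plus 0.1, on a log axis, for each gene (grey point) of the 13 cell type lists, with the list median in red and a dotted line at 1 TPM. Medians of the astrocyte, quiescent stem cell, ependymal and oligodendrocyte lists lie above 100 TPM, and those of the choroid plexus, endothelial and pericyte lists lie below 1 TPM.

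Against the label of quiescent neural stem cells, the markers thus gave a mixed picture. The median percentile among members was 97.4 for astrocyte genes, 95.1 for quiescent stem cell genes, 98.4 for oligodendrocyte genes and 93.9 for ependymal genes, against 45.7 for genes of activated and dividing cells, of which Ccnd2 lay above Sox2 in every library. The share of cells behind each signal was not measured.

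**Figure D3:**
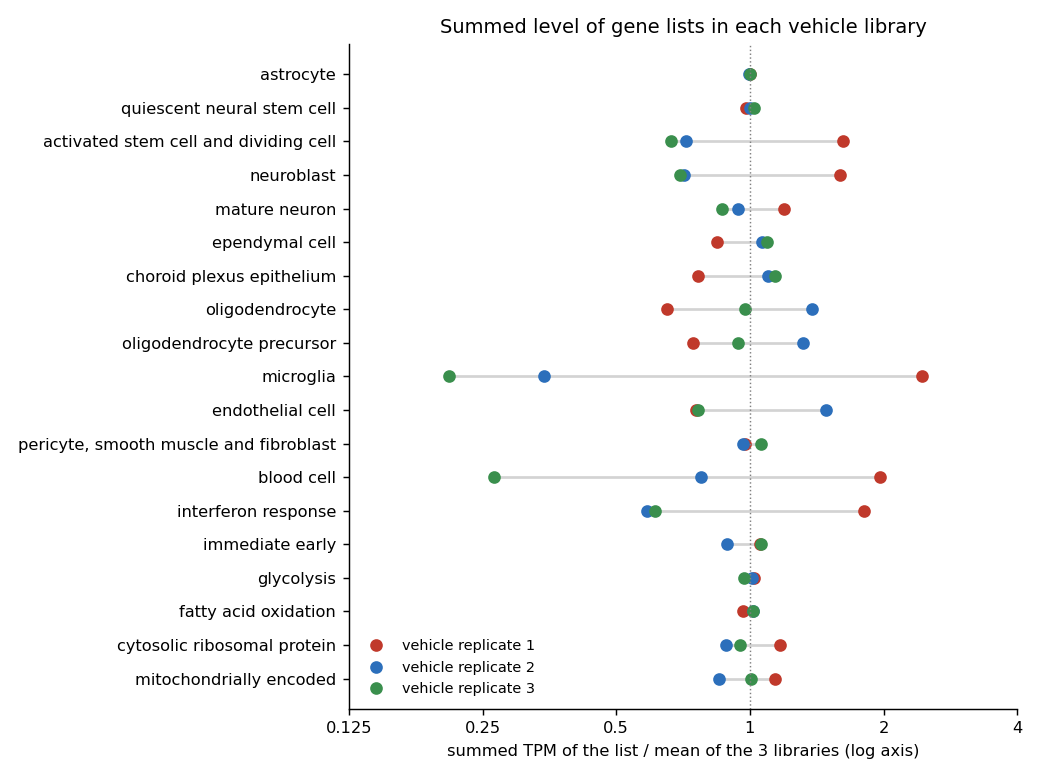
Summed TPM of each gene list in each vehicle library, divided by the mean of the 3 libraries, on a log axis. The astrocyte, quiescent stem cell, glycolysis and fatty acid oxidation sums coincide, while the microglia sums run from 238 to 2767 TPM and those of blood, interferon response, dividing cell and neuroblast genes are highest in replicate 1.

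Interferon response genes were raised together in replicate 1. Of the 25 listed, 20 were members, all 20 were highest in replicate 1, and the sum was 3610 TPM against 1173 and 1221 TPM. Ifitm3, a membrane protein that restricts virus entry, measured 946, 339 and 384 TPM, and the class I histocompatibility genes H2-D1 and B2m 477, 231.5 and 219 TPM and 508, 115 and 143 TPM. Ifi27 had 511, 172 and 159 TPM. The ratio of the highest to the lowest library ran from 1.27 (Gbp2) to 27.8 (Oasl2) over the 20 members, and 17 of them reached 2. Isg15, a ubiquitin-like modifier, had 58.8, 2.55 and 4.61 TPM, Oasl2 83.1, 2.99 and 3.35 TPM, and Bst2 128, 13.1 and 23.9 TPM. Ifit1 (31.1, 0.164 and 0.290 TPM) and Usp18 (31.2 TPM in replicate 1) reached 1 TPM only in that library and so were no members. Both were named after their values were seen. The microglia sum was high in the same library, and its part in the interferon values was not tested.

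Immediate early genes were abundant in all 3 libraries. Of 19 listed, 17 were members with a median of 216 TPM. Fos measured 2518, 1914 and 2547 TPM and ranked 27 of all members, Jun 971, 1015 and 1113 TPM, Jund 957 ± 42.3 and Egr1 904, 855 and 966 TPM. These genes respond within minutes to stimulation and to tissue dissociation, whose part here was not tested. Their sum was 8325, 7023 and 8368 TPM, and 14 of the 17 were lowest in replicate 2.

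Glycolysis and fatty acid oxidation genes were even across libraries, unlike the mitochondrially encoded genes above. Of 17 glycolysis genes 16 were members with a median of 237 TPM and a median CV of 5.62%. After Aldoc they were led by Aldoa (1058 ± 66.4 TPM), the lactate dehydrogenase gene Ldhb (1006, 1019 and 1019) and Gapdh (861 ± 48.1). Fatty acid oxidation genes, a route used by quiescent stem cells and astrocytes, were members in 18 of 18 cases with a median of 113 TPM and a median CV of 6.38%. The electron transfer gene Etfa measured 347 ± 13.7 TPM, and the beta-oxidation genes Hadhb, Acaa2 and Acadm 218 ± 7.35, 212 ± 13.9 and 184 ± 11.9 TPM. Cpt1a, which admits fatty acids to mitochondria, had 66.9, 59.8 and 62.0 TPM (named after its values were seen).

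Of the nuclear genes of the respiratory chain and ATP synthase, 79 of 83 were members with a median of 197 TPM, led by Cox8a (948 ± 95.0), Atp5b (893 ± 24.4), Cox6a1 (716 ± 77.0) and Cox6c (597 ± 13.8). Their sum was 20273, 18796 and 18864 TPM. Cytosolic ribosomal protein genes were members in 81 of 85 cases with a median of 124 TPM, and 70 of the 81 were highest in replicate 1, at sums of 15617, 11808 and 12683 TPM. Rpl41 had 868, 619 and 763 TPM. Ribosomal protein genes have many processed pseudogenes, so their levels are uncertain.

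Of other housekeeping classes, the proteasome, translation factor and tRNA synthetase genes were nearly complete. Proteasome subunit genes were members in 36 of 39 cases (median 132 TPM, Psmb6 highest at 355 ± 24.5), translation factor genes in 66 of 68 (median 45.9 TPM, Eif1 highest at 1509 ± 96.6) and tRNA synthetase genes in 34 of 34 (median 35.4 TPM, Lars2 highest at 919 ± 124). Heat shock and chaperonin genes were members in 72 of 83 cases, and after Hsp90aa1 the highest were Hspa8 (1316 ± 73.6 TPM), Hsp90ab1 (1252 ± 105) and Hspa5 (729 ± 63.0). Rab GTPase genes of vesicle traffic were members in 48 of 59 cases, led by Rab7 (294 ± 7.85 TPM), Rab11b (274.5 ± 27.2) and Rab2a (227 ± 5.47). For histone genes 53 of 99 were members (53.5%, below the 58.7% of all listed protein-coding genes). Of these 99, 26 were at 0 in all 3 libraries. The highest were the replication-independent H3f3a (1059, 770.5 and 710.4 TPM) and H3f3b (780 ± 49.3).

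The member shares of transport and signalling classes lay near or below the 58.7% of all listed protein-coding genes. Of 371 solute carrier genes 226 were members (60.9%). Slc1a3 and its relative Slc1a2 (528 ± 42.1 TPM), which clear glutamate, ranked with the fatty acid transporter gene Slc27a1 (548.5, 679 and 676 TPM) and the mitochondrial ADP/ATP carrier gene Slc25a4 (442 ± 29.3) as the 4 highest. Potassium channel genes were members in 45 of 94 cases, led by the glial inward rectifier gene Kcnj10 (176.5 ± 10.6 TPM), Kcnk1 (175.5 ± 32.8), Kcnn2 (91.4 ± 4.62) and Kcne1l (51.3 ± 9.05). Voltage-gated sodium and calcium channel genes were members in 21 of 40 cases with a median of 7.51 TPM, led by Cacna1s at 39.0 ± 14.8 TPM. Among orphan and adhesion receptors 41 of 100 were members. Gpr37l1, a glial receptor, was far above the rest of that class at 1180, 1013 and 1128 TPM, and Adgrg1 followed with 203 ± 38.9 TPM.

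Of 19 Wnt ligand genes 8 were members, the highest being Wnt7b (47.4 ± 3.25 TPM), Wnt4 (40.3 ± 0.916), Wnt11 (35.1 ± 6.06) and Wnt7a (22.7 ± 7.03). Interleukin genes were members in 7 of 33 cases. Il18 stood out at 261, 281 and 267 TPM, and the alarmin gene Il33 had 80.5 ± 12.6 TPM. Both were even across libraries, unlike Il1a (34.9, 5.21 and 0 TPM) and Il1b (29.6, 0.758 and 3.84 TPM), which were no members and were named after their values were seen. Cytochrome P450 genes were members in 17 of 99 cases, led by Cyp4f15 (280.1 ± 48.3 TPM), Cyp2d22 (161 ± 20.2), Cyp2j9 (84.6 ± 13.1) and the cholesterol hydroxylase gene Cyp46a1 (59.3, 77.1 and 70.7). Genes with collagen-type names were members in 21 of 45 cases (Col4a3bp, which encodes a ceramide transfer protein, is among the members by its name alone), with Col16a1 (103 ± 33.5 TPM) and Col8a2 (86.4 ± 11.5) highest, and ABC transporter genes in 30 of 50, with Abca2 (82.4, 147 and 123 TPM) highest. Trim genes, many of them ubiquitin ligases, were members in 37 of 68 cases, led by Trim2 (118 ± 7.31 TPM) and Trim8 (111 ± 4.62).

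Gene families foreign to this tissue were nearly absent. Of 1101 olfactory receptor genes 4 were members and 1053 were at 0 in all 3 libraries, and of 321 vomeronasal receptor genes 2 were members. The highest were Olfr287 (9.19, 7.65 and 25.9 TPM), Olfr1507 (8.54 ± 4.37) and Vmn2r42 (3.24 ± 1.41). Keratin genes were members in 6 of 53 cases, led by the simple-epithelium pair Krt18 (36.6 ± 4.07 TPM) and Krt8 (28.8 ± 4.12).

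Transcription factor families were members in 304 of 490 cases with a median of 19.1 TPM. Among the 20 highest, beside Fos, Jun, Jund, Egr1, Junb (716 ± 102 TPM) and Atf3 (286, 151 and 210), were Id4, Id3 and Id2 (364 ± 17.1), Sox9, Sox2, the Notch effector gene Hes5 (261 ± 23.9), Foxj1 and Olig1. Tsc22d4 measured 531, 831.5 and 797 TPM. The astrocyte factor gene Zbtb20 had 328 ± 24.8 TPM, Tcf4 315 ± 28.5, the thyroid hormone receptor gene Thra 198 ± 2.91 and the clock repressor gene Nr1d1 198 ± 16.6. Maf1 (218, 282 and 247 TPM), a repressor of RNA polymerase III, was taken by its name alone. Of genes named Zfp, most of which encode zinc finger proteins, 331 of 394 were members, at a median of 9.82 TPM. The highest, Zfp36, encodes a protein that degrades mRNA (260 ± 38.4 TPM).

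Among listed factors that pattern the brain along its axes, most of those of the telencephalon were members. None of those of the midbrain, hindbrain and spinal cord reached 1 TPM in all 3 libraries. The telencephalic factor gene Lhx2 had 113, 111 and 122 TPM. None of the 11 midbrain and hindbrain genes was a member. En2 was the highest of them at 0.926, 2.77 and 2.54 TPM, Pax5, Pax3, Pax8 and Pax2 were under 1 TPM throughout, and En1, Pax7, Hoxa2, Hoxb2 and Atoh1 were at 0. None of 39 Hox genes was a member, the highest being Hoxc9 at 0.476 ± 0.239 TPM.

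Subpallial factors, which mark the lateral and ventral walls of the ventricle, were members in 10 of 13 cases (76.9%). The share of all listed protein-coding genes was 58.7%. Nkx6-2, also a gene of myelinating oligodendrocytes, was the highest at 73.5, 181 and 157 TPM, an order in which replicate 2 led as it did for myelin genes. Dlx2, Dlx1 (138, 38.6 and 40.4 TPM) and Meis2 (100.3, 67.6 and 63.6) were highest in replicate 1 as other neuroblast genes were. Gsx2, a factor of the lateral ganglionic lineage, was the most even of the list at 24.7, 24.7 and 25.2 TPM. Six3 measured 39.0 ± 9.95 TPM, Vax1 7.78 ± 2.79 and the hedgehog target gene Gli1 4.83 ± 1.34. Nkx2-1, Isl1 and Gsx1, at 1.61 ± 0.832, 1.06 ± 0.741 and 0.153 ± 0.169 TPM, were no members.

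Pallial factors of the dorsal wall were members in 6 of 9 cases (66.7%, near the 58.7% of all listed protein-coding genes). Beside Lhx2 these included Pax6 (29.9 ± 3.54 TPM), Emx2 (15.0 ± 1.63), Tbr1 (3.56 ± 0.790) and Emx1 (2.94 ± 0.187), while Eomes, Neurog1 and Neurog2 were under 1 TPM in every library. Of the septal and diencephalic genes 5 of 11 were members (45.5%, below the 58.7%). These were Tcf7l2 (41.6 ± 5.38), Otx2, Nkx2-2 (11.1 ± 0.899), Irx3 (10.3 ± 2.00) and Zic4 (1.85, 10.1 and 3.64 TPM). Zic1, Lhx9 and Zic2 averaged under 1 TPM, and Foxd1, Gbx2 and Irx1 were at 0.

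The spread between libraries exceeded counting error for nearly all genes. A gene's counting error was taken from its summed counts, and 95.9% of members had a CV above it. The median CV of members was 18.9% (interquartile range 11.2 to 30.9%), against 4.05% from that error alone. It fell with level, from 34.9% at 1 to 5 TPM and 30.1% at 5 to 10 TPM to 17.9% at 10 to 100, 11.1% at 100 to 1000 and 9.58% at 1000 TPM or more. The median over 2 libraries was 13.2% without replicate 1, 17.4% without replicate 2 and 16.6% without replicate 3. These medians over 2 libraries cannot be set directly against the 18.9% over 3.

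**Figure D4:**
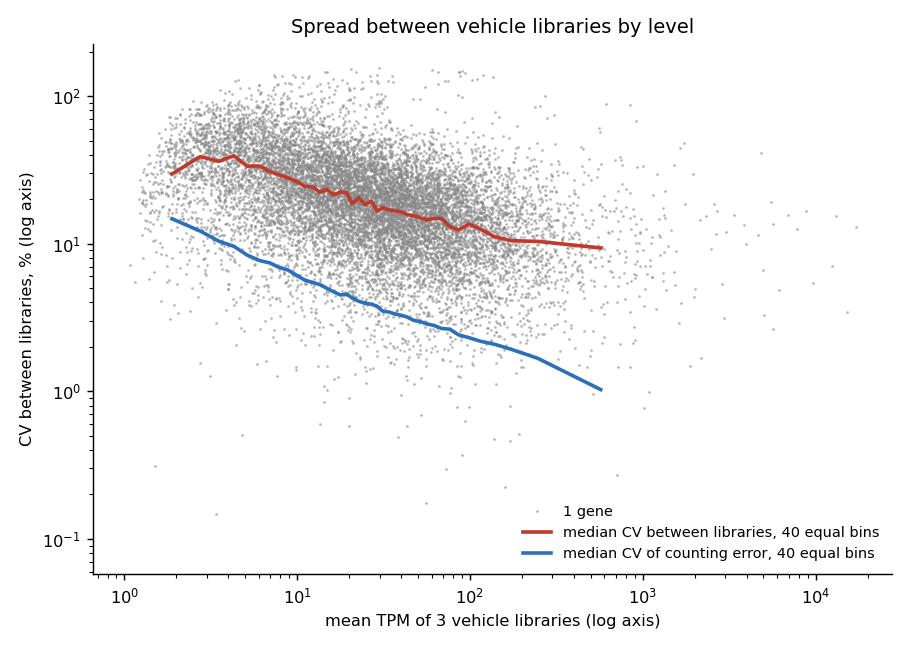
CV between the 3 vehicle libraries in percent against mean TPM for each member (grey points), both on log axes, with medians in 40 bins of equal size (red) and the median CV that counting error alone gives (blue). The red line lies above the blue one at every level, at a median of 18.9% against 4.05% over all members.

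At a mean of 10 TPM or more, 9762 members were measured, of which 1133 (11.6%) differed at least 2-fold between the highest and lowest library, 104 at least 5-fold and 47 at least 10-fold. Replicate 1 was at least 2-fold above both others for 233 genes, replicate 2 for 25 and replicate 3 for 26. Replicate 1 was at or below 50% of both others for 152 genes, replicate 2 for 21 and replicate 3 for 114. Between replicates 2 and 3 alone, 253 of 9667 genes (2.62%) differed 2-fold, 4 of them at least 5-fold and 1 at least 10-fold. The same share was 7.16% (702 of 9806) between replicates 1 and 2 and 7.98% (778 of 9750) between 1 and 3. These pair values are to be set beside each other, since the 11.6% spans 3 libraries.

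The 20 genes with the largest ratio were all highest in replicate 1. The chemokine gene Ccl4 led with 230, 25.1 and 3.40 TPM, a ratio of 67.5, followed by the microglial gene Tmem119 (175, 18.4 and 3.24 TPM, ratio 54.0) and Ccl3 (165, 12.2 and 3.73 TPM, ratio 44.1). Others of the 20 are genes of myeloid and other immune cells, Selplg, Itgam, C1qc, C1qa, Fcer1g, Cx3cr1, Cd14, Gpr34, Ptgs1, Srgn and Rgs1, with Lgals9 and the cytokine gene Tnf (38.7, 2.93 and 1.85 TPM). Isg15, Oasl2 and Ly6e (245, 14.3 and 11.1 TPM) are interferon-induced. The neuropeptide gene Sst, of interneurons, was in the group with 46.9, 9.94 and 1.85 TPM, which rested on 226, 43 and 10 counts. Of the 100 genes with the largest ratio, 98 were highest in replicate 1, and 13 were on the microglia list, 6 on the interferon and 6 on the neuroblast list. Without replicate 1, Syne4, which encodes a nuclear envelope protein, had the largest ratio (10.4, replicate 3 over 2) on 7 counts in replicate 2.

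**Figure D5:**
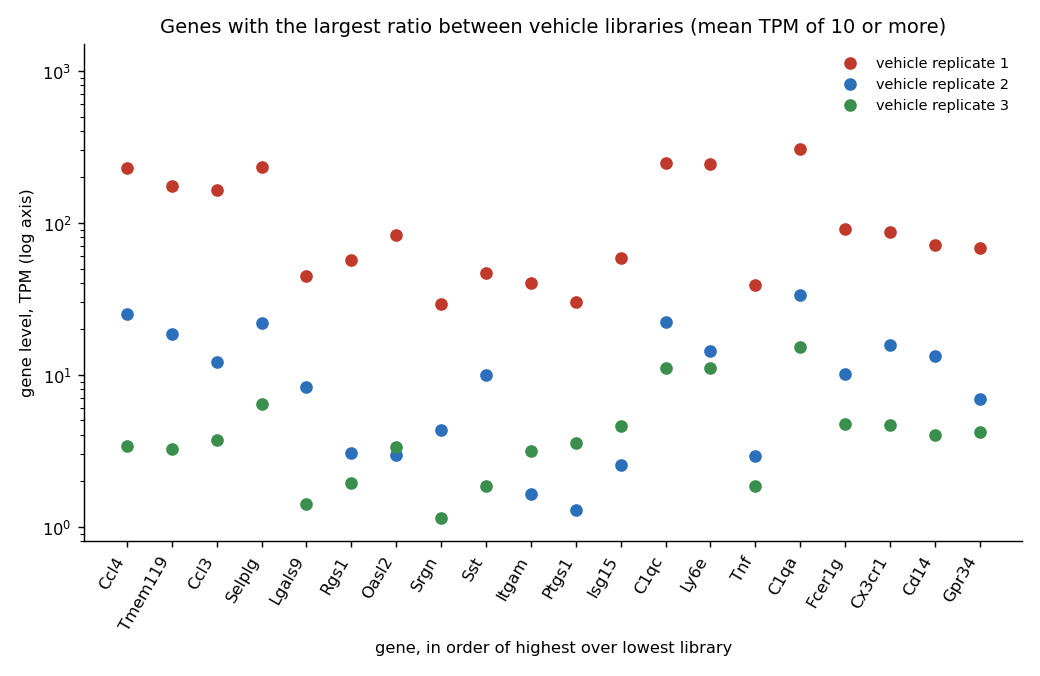
Level in TPM, on a log axis, of the 20 members with the largest ratio of the highest to the lowest vehicle library at a mean of 10 TPM or more. Replicate 1 (red) is above the other libraries for every gene, from Ccl4 at a ratio of 67.5 to Gpr34 at 16.2.

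At the other end, 2466 of the 9762 genes (25.3%) had a CV under 10%. The smallest was that of Calm2, a calmodulin gene, at 1059, 1059 and 1057 TPM (CV 0.084%), which is below the 0.909% that counting error gives. The next included Rnf103, Chchd2, Pfkl, Tagln3, Tcp1, Pigu, Ppt1 and Exosc1, with CVs of 0.176 to 0.577%. Pfkl is a glycolytic kinase (72.1, 72.5 and 72.2 TPM), Ppt1 a lysosomal enzyme and Tcp1 a chaperonin subunit.

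Transcript choice was stable for most genes. Of 10166 members with several listed transcripts, 75.3% had the same leading transcript in all 3 libraries. Among the 300 highest members it differed in 5 genes, among them Ewsr1, Srsf5, Dnajb2 and Aplp2. In Aplp2, a relative of the amyloid precursor, 2 coding transcripts held 51.9 and 48.1% in replicate 1 and nearly even shares in the others. The second transcript took the largest share after Aplp2 in Sumo2, Oaz1, Hspa8, Trf, Tppp3, Syt11, Slc2a1, Ywhaz and Psap (40.7 to 43.7%). The M-type pyruvate kinase gene Pkm had 90.6% of its TPM in Pkm-201.

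Part of a gene's TPM can lie in transcripts annotated as retained introns or other non-coding products. Transcripts annotated as protein coding held 86.5 to 88.8% of the TPM of protein-coding genes, and under 50% for 22 of the 300 highest members. For Prdx6 the coding share was 10.6%, so that 2889 TPM became 307, for Gapdh 23.0%, and for Hspa8 42.4%. The glucose transporter gene Slc2a1 had 56.4% in a transcript annotated for nonsense-mediated decay. Ppp1r1b had 53.9% in its full-length coding transcript Ppp1r1b-201 and 37.4% in one with a retained intron. These genes, apart from Hspa8, Slc2a1 and Ppp1r1b, were picked with their values in view. Their ranks depend on whether such transcripts are counted.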

How the data were processed

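RNA-seq of flow-sorted subependymal cells was described in the 3 vehicle libraries, grouped by the labels' treatment group. Per the labels' protocols, cDNA was made from PicoPure RNA by SMART-Seq v4 and sequenced as 100 bp paired ends. The submitters' processing notes list kallisto and sleuth together with the build mm10, and no version is given in the sources used here. Per the file headers, the deposited estimated counts (expected counts) are given per transcript and not normalized, and the deposited TPM values divide them by effective transcript length and scale each library to the same total.

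Transcript identifiers were matched to GENCODE M21 (GRCm38) without version, a choice made after the files were seen, since matching with version left 17.1 to 17.6% of TPM unmatched. This matched 98294 of 99567 transcripts (98.7%). The other 1273 (3.43 to 4.41% of TPM, 0.558 to 0.586% of counts) and all genes not annotated as protein coding were left out. TPM was summed per gene, including non-coding transcripts of coding genes, and members had at least 1 TPM in each library. Reads shared by similar transcripts are split by an estimate, so near-identical genes are uncertain, and the kit does not mark strand, so overlapping antisense genes cannot be told apart.

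With 1 group there is no test. The CV is SD over mean of TPM (n = 3), and the counting CV is that of a Poisson count, taken from the summed counts of a gene. It leaves out the differing lengths of a gene's transcripts and the splitting of shared reads. CVs and ratios were tested on simulated data, and the gene sums of replicate 1 were checked against the total of their transcripts. The 13 cell type lists and the class lists were written from general knowledge or gene names, and the members and lists were chosen with earlier results of these data known. Named were the 30 highest nuclear members, up to the 4 highest of each list or class (20 for transcription factors), a fixed set of marker genes, list genes at 0, all patterning genes, the 20 largest ratios and 10 smallest CVs at a mean of 10 TPM or more, 3 genes on each side of the threshold, and among the 300 highest members those with a large second transcript or a changing leading one. Gm and Rik names were counted only, and some genes that the rule names are not reported here. Promoter windows were searched as text. Python 3.11.15 (pandas 2.3.3, numpy 2.4.6, matplotlib 3.10.9) and edgeR 4.0.16 in R 4.3.3, for TMM factors in 1 alternative, were used. Alternatives were other thresholds, scalings, transcript sets and identifier matching, and leaving out each library.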

Additional observations from a re-analysis of the deposited data

Results flagged for a closer look

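Signal lay outside the protein-coding genes, in transcripts that the description above does not use, at levels far above 3 counts in each library. A transcript of 159 bases with no match in the annotation averaged 28113 TPM over the vehicle libraries, more than any protein-coding gene, and held 2.40 to 3.25% of a library's TPM from 0.0697 to 0.0963% of its counts, since its effective length was 47.1 bases. Gm29216, annotated as an unprocessed pseudogene, averaged 8337 TPM. A second unmatched transcript, of 226 bases, and the processed pseudogenes Gm12896 and Gm12895 had identical values in every library and averaged 5619 TPM each. All annotated pseudogenes together held 4.91% of TPM on average, and all unmatched transcripts 3.91%.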

How the results depend on the processing

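The number of members, 12825, stayed within 1.5 times under every alternative run. It was 13484 at a threshold of 0.5 TPM, 10574 at 5 TPM, 13952 by a mean of 1 TPM, 12388 with protein-coding transcripts only, 12720 with at least 10 counts in every library, 11018 with identifiers matched with version (all of them among the 12825), and 13057 to 13202 with 1 library left out. The median CV of 18.9% was 16.7% for members at 5 TPM or more and 13.2 to 17.4% with 1 library left out, lowest without replicate 1. It was 18.3% for CPM with TMM factors and 18.9% outside the microglia, blood and interferon lists, an alternative chosen after seeing the data. The 100 highest members held 28.1% of TPM on average, 23.0% without mitochondrially encoded genes, 30.5% with protein-coding transcripts only, 19.8% of CPM (not per length) and 27.7 to 28.7% with 1 library left out. Without replicate 1 the medians over all listed genes were 19.5 TPM for microglia, 14.0 (from 29.8) for neuroblasts and 0.955 (from 2.37) for blood cells. The endothelial median fell from 0.719 to 0.288 TPM without replicate 2. No paired analysis was possible because 1 group was described. Below 5 TPM, counting error alone had a median CV of 11.1%.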

Other observations

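The 6 members on the Y chromosome of 183 listed there included Eif2s3y (64.8, 83.8 and 67.4 TPM), Ddx3y (38.9 ± 11.4 TPM, SD, n = 3), Uty (16.5, 16.2 and 11.4 TPM) and Kdm5d (13.4, 8.07 and 8.32 TPM). Of 947 genes on the X chromosome 418 were members (44.1%), and the autosomes ranged from 48.4% on chromosome 7 to 72.0% on chromosome 12.

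Among the 300 highest members, low shares in protein-coding transcripts were also found for genes named after their values were seen, Ppia (2.02%), a cyclophilin gene, Ndufa3 (9.62%), Hnrnpu (10.9%), Bnip3l (11.6%), Apod (15.1%) and Rbm39 (19.2%). The last, a splicing factor gene, measured 325, 523 and 597 TPM with coding shares of 25.2, 17.2 and 15.1% in replicates 1 to 3, and Srsf5, another, 544, 838 and 906 TPM with 50.9, 33.8 and 33.0%. In both genes replicate 1 had the lowest level and the highest coding share.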
